A study of Rattus norvegicus with 30 samples.

Results

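Motile cilia are hair-like extensions of the cell surface whose core, the axoneme, is a ring of doublet microtubules around a central pair. Dynein motors in an outer and an inner row make the doublets slide, and radial spokes, nexin links and the central pair turn this sliding into a beat. In the brain, ependymal cells that line the ventricles carry tufts of motile cilia that move cerebrospinal fluid, and the choroid plexus, which secretes the fluid, carries related cilia. Neurons and astrocytes bear a primary cilium, which lacks most of this machinery.

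The genes described here are 45 symbols chosen by name as genes of the motile axoneme and of ependymal cilia. Of these, 40 have a row among the 17134 genes of the table. Foxj1, Spag16, Spag17, Cfap46 and Cfap54 had no row under these symbols and are not analysed here, and 2335 genes of the table carry an Ensembl identifier alone. By role, the 40 genes are 5 outer arm dyneins, 4 inner arm dyneins, 3 genes of the dynein tether and inner arm attachment, 3 radial spoke genes, 4 genes of the axonemal ruler and nexin link, 6 central pair genes, 9 microtubule inner proteins, the dynein assembly factor Zmynd10 and 5 other genes of ciliated cells.

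RNA was sequenced from brain tissue of 30 male Sprague Dawley rats on a normal diet. The 10 WT rats express rat amylin, a β-cell hormone that does not form amyloid. The 10 HIP rats also express amyloid-forming human amylin in the pancreas and develop type-2 diabetes. The 10 AKO rats are amylin knockouts. The methods of the study give an age of 15 to 16 months for HIP and WT rats, and the age of the AKO rats sequenced is not given in the sources used here. The tissue is frontal cortex in the sample annotation, and the text of the study also names hippocampus and cerebral cortex. Depth, as estimated reads on genes in megareads (M), spanned 12.9 to 21.1 M per WT rat, 13.7 to 16.7 M per HIP rat and 12.9 to 23.6 M per AKO rat. All levels below are normalized counts, and all differences are on the scale of log2(normalized count + 1), on which changes at low counts look smaller than they are.

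Some libraries stood apart from their tissue label. HIP rat 10RT46 had 19081 normalized counts of Tph1, a pineal gland enzyme, and was the library above 100 for this gene. It also had 14881 of Ttr, the main transcript of the choroid plexus. AKO rat 7AKO19 had 3445 of Ttr but 2.02 of Tph1. In the other 28 rats Ttr was at most 35.4. WT rat 10RT43 had 17979 normalized counts of Gabra6, a gene of cerebellar granule cells, and HIP rat 12RT23 had 1564. The mean log2 value of 5 neocortical layer genes was 4.03 in 10RT43 but 10.24 in 12RT23, and at least 9.14 in every rat but 10RT43. Rat 10RT43 stayed in the WT group of the main fits, and fits without it are among the alternatives at the end. Genes of the olfactory bulb were high in 10 of the 30 libraries. Counts of genes called and correlations are therefore also given without 10RT46 or without both 10RT46 and 7AKO19. In bulk tissue, fewer ciliated cells and less RNA per ciliated cell cannot be told apart.

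Promoters were examined first, since genes of motile cilia are widely known as targets of RFX factors, which bind the X-box, and of the forkhead factor FOXJ1. Of the 45 genes, 36 had a promoter of 300 bases, from 250 bases before to 50 after the start, in a RefSeq table of the assembly GRCr8. A core motif of the X-box, GTTGCC on either strand, was found in 13 of these 36 promoters (36.1%), against 12.2% of all 33469 promoters of the same length. A strict whole X-box, GTTNCC and GGNAAC exactly 2 bases apart, was searched on both strands (its arms can hold the core motif). This form was in 0 of 36 and in 0.472% of all promoters. Looser forms were not searched, so the count does not show that a whole X-box is absent. Cfap44 and Tekt2, printed below, hold gttgctgtGGCAAC and gttgctaGGCAAC. These differ from the strict form in a base of the first arm, and in Tekt2 also in spacing. The forkhead core TGTTTA, on either strand, was in 8 of 36 (22.2%) and in 13.7% of all promoters. Of the promoters with the core motif, 4 are printed 5′ to 3′ on the strand of the gene, because these genes recur below. Cfap44 and Tekt1 are among the genes that varied most closely with the others. Drc1 varied less than most, with an SD of 0.36 (log2) within groups, but reached 185 normalized counts in 7AKO19. Tekt2 is the gene with the smallest p-value in the HIP vs. WT comparison. Capitals mark each core motif, which reads GTTGCC or its reverse complement GGCAAC.
Cfap44, GRCr8 chr11:69789856-69790155, minus strand: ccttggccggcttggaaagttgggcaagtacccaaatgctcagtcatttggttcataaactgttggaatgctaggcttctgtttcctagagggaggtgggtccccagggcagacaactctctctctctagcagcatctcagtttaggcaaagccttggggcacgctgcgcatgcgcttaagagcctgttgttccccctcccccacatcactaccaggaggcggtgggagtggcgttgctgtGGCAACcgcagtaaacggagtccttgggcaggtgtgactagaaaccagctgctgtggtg
Tekt1, GRCr8 chr10:57479072-57479371, minus strand: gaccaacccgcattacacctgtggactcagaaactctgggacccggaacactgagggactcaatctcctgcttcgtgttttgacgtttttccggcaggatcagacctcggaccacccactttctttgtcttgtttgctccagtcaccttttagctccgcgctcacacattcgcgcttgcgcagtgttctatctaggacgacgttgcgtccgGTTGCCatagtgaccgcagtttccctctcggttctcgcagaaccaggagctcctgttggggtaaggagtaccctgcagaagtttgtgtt
Drc1, GRCr8 chr6:31779207-31779506, minus strand: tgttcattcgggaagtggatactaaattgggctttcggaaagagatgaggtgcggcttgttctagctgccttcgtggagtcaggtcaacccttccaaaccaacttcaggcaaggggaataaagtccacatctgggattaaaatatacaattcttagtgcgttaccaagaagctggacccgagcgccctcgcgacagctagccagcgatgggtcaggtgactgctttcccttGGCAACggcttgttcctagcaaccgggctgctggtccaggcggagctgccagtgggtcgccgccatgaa
Tekt2, GRCr8 chr5:143907675-143907974, minus strand: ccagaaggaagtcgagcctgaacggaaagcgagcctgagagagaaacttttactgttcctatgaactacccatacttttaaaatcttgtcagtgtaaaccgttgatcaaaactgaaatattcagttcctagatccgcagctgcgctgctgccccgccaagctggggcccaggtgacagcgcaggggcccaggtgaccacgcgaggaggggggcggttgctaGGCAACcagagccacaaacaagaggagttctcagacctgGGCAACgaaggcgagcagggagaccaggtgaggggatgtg
The core motif lies 9 bases before the start in Cfap44, 39 before it in Tekt1 and 19 before it in Drc1, and the first of its 2 copies in Tekt2 lies 29 bases before the start. These matches are descriptions of the sequence and not sites shown to be bound.

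The first question was whether the motile cilia genes differ between rats that express human amylin and rats that express rat amylin. For HIP vs. WT, 1 of the 40 genes, the tektin Tekt2, passed an unadjusted threshold of p = 0.05 in a two-sided limma test. Of all 17085 genes tested, 2.57% passed it, 1.11% higher and 1.46% lower in HIP rats. No gene of the 40 passed after Benjamini-Hochberg adjustment over all genes, as was the case for all genes of this comparison (0 called, which is 0% of those tested, and 439 past the unadjusted threshold). Among the 40, adjusted p-values in limma started at 0.999. The log2 difference was above 0 for 30 of the 40 genes (median 0.18), and 8645 of the 17085 genes tested lay above 0 (median 0.0018). Without 10RT46, 0 of 39 genes passed the unadjusted threshold, against 4.58% of all genes, and the median was 0.08.

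Tekt2 (ENSRNOG00000011033), a tektin filament protein inside the doublet microtubules, ranged from 1.04 to 16.7 normalized counts in WT rats (median 8.21), from 4.41 to 44.6 in HIP rats (median 10.6) and from 4.90 to 23.1 in AKO rats (median 12.7). Its highest HIP value was that of 10RT46, with 19.9 in the next HIP rat, and the 3 groups overlapped. The HIP vs. WT log2 difference was 0.75 ± 0.36 (SE, n = 10 per group, limma unadjusted p = 0.0497, adjusted p = 0.999). Without 10RT46 it was 0.56 ± 0.33, with an unadjusted limma p = 0.106.

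**Figure D1:**
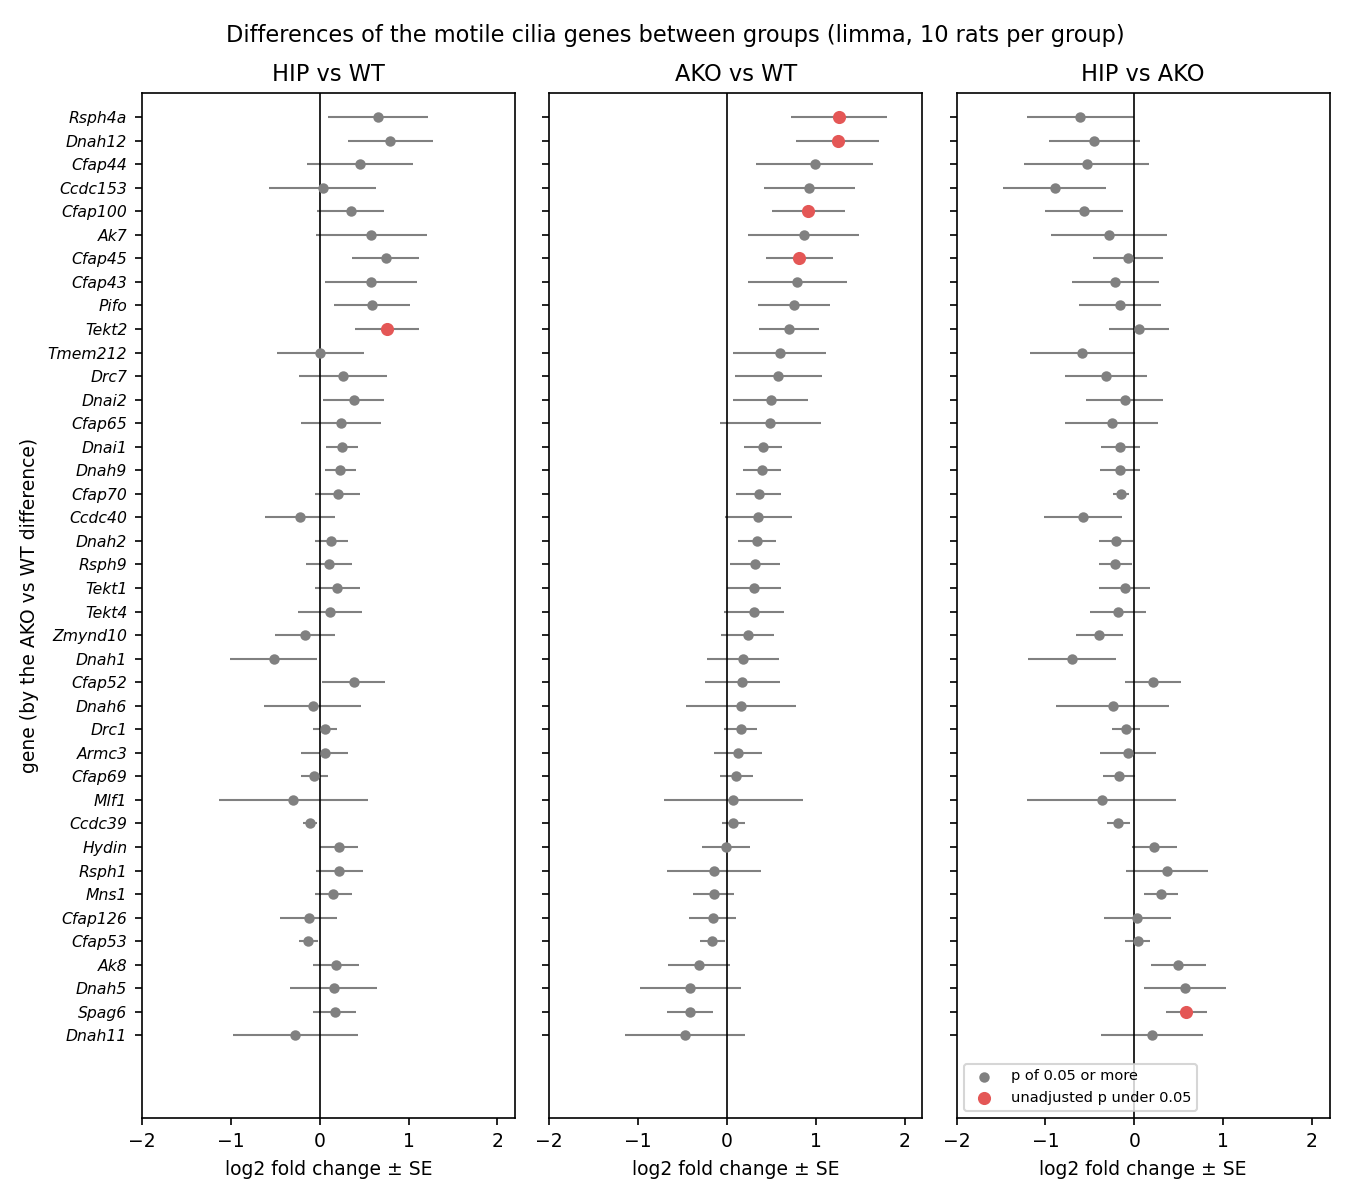
Log2 difference (x axis, ± SE) of each of the 40 motile cilia genes in HIP vs. WT, AKO vs. WT and HIP vs. AKO rats, with genes ordered by the AKO vs. WT difference and red points for unadjusted p-values under 0.05. Points lie above 0 for 30, 31 and 11 genes in the 3 panels, and 1, 4 and 1 genes pass the unadjusted threshold.

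The AKO rats serve as a control without amylin, and their comparison with WT rats shares the WT libraries with the comparison above. Here 4 of the 40 genes were higher in AKO rats at the unadjusted threshold and 0 were lower. Of the 17058 genes tested, 9.34% passed it, 5.23% higher and 4.12% lower in AKO rats. The 4 genes were Dnah12, Rsph4a, Cfap100 and Cfap45, and none passed after adjustment (smallest adjusted p = 0.396, limma), while 17 of all genes (0.0997%) did. The log2 difference was above 0 for 31 of the 40 genes (median 0.31), and 8586 of the 17058 genes tested lay above 0 (median 0.0014). Without 7AKO19, Dnah12 alone passed the unadjusted threshold among 39 genes tested, against 8.39% of all genes, and the median was 0.16.

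Dnah12 (ENSRNOG00000059865), a heavy chain of the inner arm, ranged from 2.39 to 28.8 normalized counts in WT rats (median 13.8), from 3.14 to 69.8 in HIP rats (median 34.7) and from 5.49 to 102 in AKO rats (median 44.2). The ranges overlapped, but the HIP and AKO medians both lay above the highest WT rat. The AKO vs. WT difference was 1.25 ± 0.47 (SE, n = 10 per group, limma unadjusted p = 0.0140, adjusted p = 0.396), and without 7AKO19 it was 1.07 ± 0.46 (limma unadjusted p = 0.0305). With the 4 AKO rats with KAH in their names alone it was 0.42, with an unadjusted limma p = 0.497.

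Rsph4a (ENSRNOG00000049696), a protein of the radial spoke head, was at 0 to 4.55 normalized counts in WT rats (median 2.06), 0 to 43.6 in HIP rats (median 2.13) and 0.817 to 53.4 in AKO rats (median 4.36). Outside 10RT46 and 7AKO19, no rat exceeded 9.13, and 6 WT, 7 HIP and 4 AKO rats had at most 3 estimated reads. The AKO vs. WT difference was 1.26 ± 0.54 (n = 10 per group, limma unadjusted p = 0.0284), and without 7AKO19 it was 0.90 ± 0.44 (limma unadjusted p = 0.0564).

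Cfap100 (ENSRNOG00000017959), which helps to dock inner arms, had medians of 1.81, 2.15 and 3.84 normalized counts in WT, HIP and AKO rats, with highest values of 5.40, 12.6 and 24.2. The highest HIP and AKO rats were again 10RT46 and 7AKO19, and its AKO vs. WT difference was 0.92 ± 0.41 (limma unadjusted p = 0.0368). Cfap45 (ENSRNOG00000008492), a protein inside the doublet microtubules, had medians of 6.65, 12.4 and 13.2 in WT, HIP and AKO rats and highest values of 22.95, 55.3 and 37.3. Its AKO vs. WT difference was 0.81 ± 0.38 (limma unadjusted p = 0.0424). Without 7AKO19 the differences were 0.66 for Cfap100 (limma unadjusted p = 0.0791) and 0.66 for Cfap45 (limma unadjusted p = 0.0883).

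Between HIP and AKO rats, which share their libraries with the comparisons above, 1 of the 40 genes was higher in HIP rats at the unadjusted threshold and 0 were lower. Of the 17092 genes tested, 12.7% passed it, 5.85% higher and 6.90% lower in HIP rats. None of the 40 passed after adjustment, while 29 of all genes (0.170%) did. The log2 difference was above 0 for 11 of the 40 genes (median -0.17), and 8717 of the 17092 genes tested lay above 0 (median 0.0047). Without 10RT46, 4 genes passed the unadjusted threshold, against 17.6% of all genes. Of these, Spag6 was higher in HIP rats, while Ccdc153 (log2 difference -1.25 ± 0.51), Zmynd10 (-0.55 ± 0.24) and Ccdc40 (-0.83 ± 0.39) were lower. Without 7AKO19 as well, Ak8 was higher (0.64 ± 0.29) and Ccdc153 lower (-0.93 ± 0.43) at this threshold, against 16.1% of all genes.

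Spag6 (ENSRNOG00000022021) encodes an armadillo-repeat protein of the central pair. It ranged from 13.8 to 43.9 normalized counts in WT rats (median 21.0), from 11.6 to 36.0 in HIP rats (median 29.4) and from 10.7 to 31.5 in AKO rats (median 16.7), and the groups overlapped. The HIP vs. AKO difference was 0.59 ± 0.23 (SE, n = 10 per group, limma unadjusted p = 0.0178, adjusted p = 0.299), and without 10RT46 and 7AKO19 it was 0.48 ± 0.24 (limma unadjusted p = 0.0571). The table also has a row for the related copy Spag6l, and how reads shared by both genes were counted is not given in the sources used here.

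Little of the variation of these genes lay between the groups. The share of the sum of squares of the log2 values between WT, HIP and AKO rats had a median of 5.92% over the 40 genes, with 18.1% for Spag6 as the largest, against a median of 6.59% over all genes. The mean of the log2 values of the 40 genes was 3.93 ± 0.43 in WT rats, 4.11 ± 0.57 in HIP rats and 4.26 ± 0.67 in AKO rats (SD, n = 10 per group). It ranged from 3.37 to 4.54 in WT rats (median 3.83), from 3.76 to 5.62 in HIP rats (median 3.85) and from 3.22 to 5.63 in AKO rats (median 4.19). The differences between these group means were smaller than the spread within each group.

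**Figure D2:**
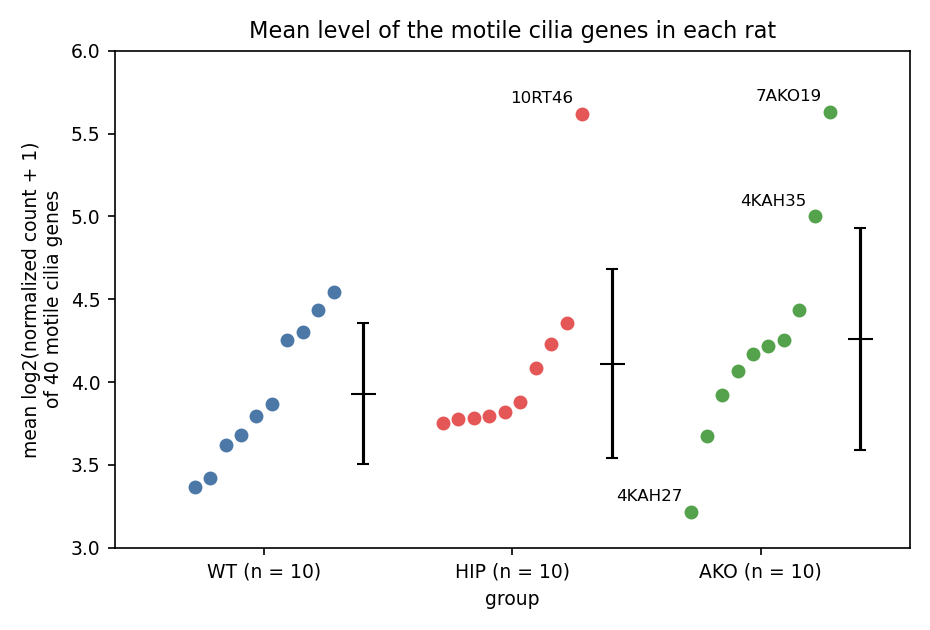
Mean of log2(normalized count + 1) over the 40 motile cilia genes (y axis) for each rat, by group, with bars for the group mean ± SD (n = 10). AKO rat 7AKO19 (5.63), HIP rat 10RT46 (5.62) and AKO rat 4KAH35 (5.003) lie above all other rats, which reach 4.54.

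The 3 libraries with the highest mean over the 40 genes were 7AKO19, 10RT46 and 4KAH35. They were chosen on these same genes, so high counts for them are partly fixed by the choice. The counts are descriptions, and the same counts over all genes were not made. Rat 7AKO19 exceeded all 27 rats outside the top 3 for 26 of the 40 genes, 10RT46 did so for 25 and 4KAH35 for 13, and all 3 did so for the same 13 genes. Rat 7AKO19 was the highest of the 30 rats for 19 genes and 10RT46 for 8. At the other end, 4KAH27 and 10RT44 had the lowest means, 3.22 and 3.37, followed by 10RT43 with 3.42. Rat 10RT43 was unusual in both directions, as the lowest rat for 8 genes and the highest for 3.

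**Figure D3:**
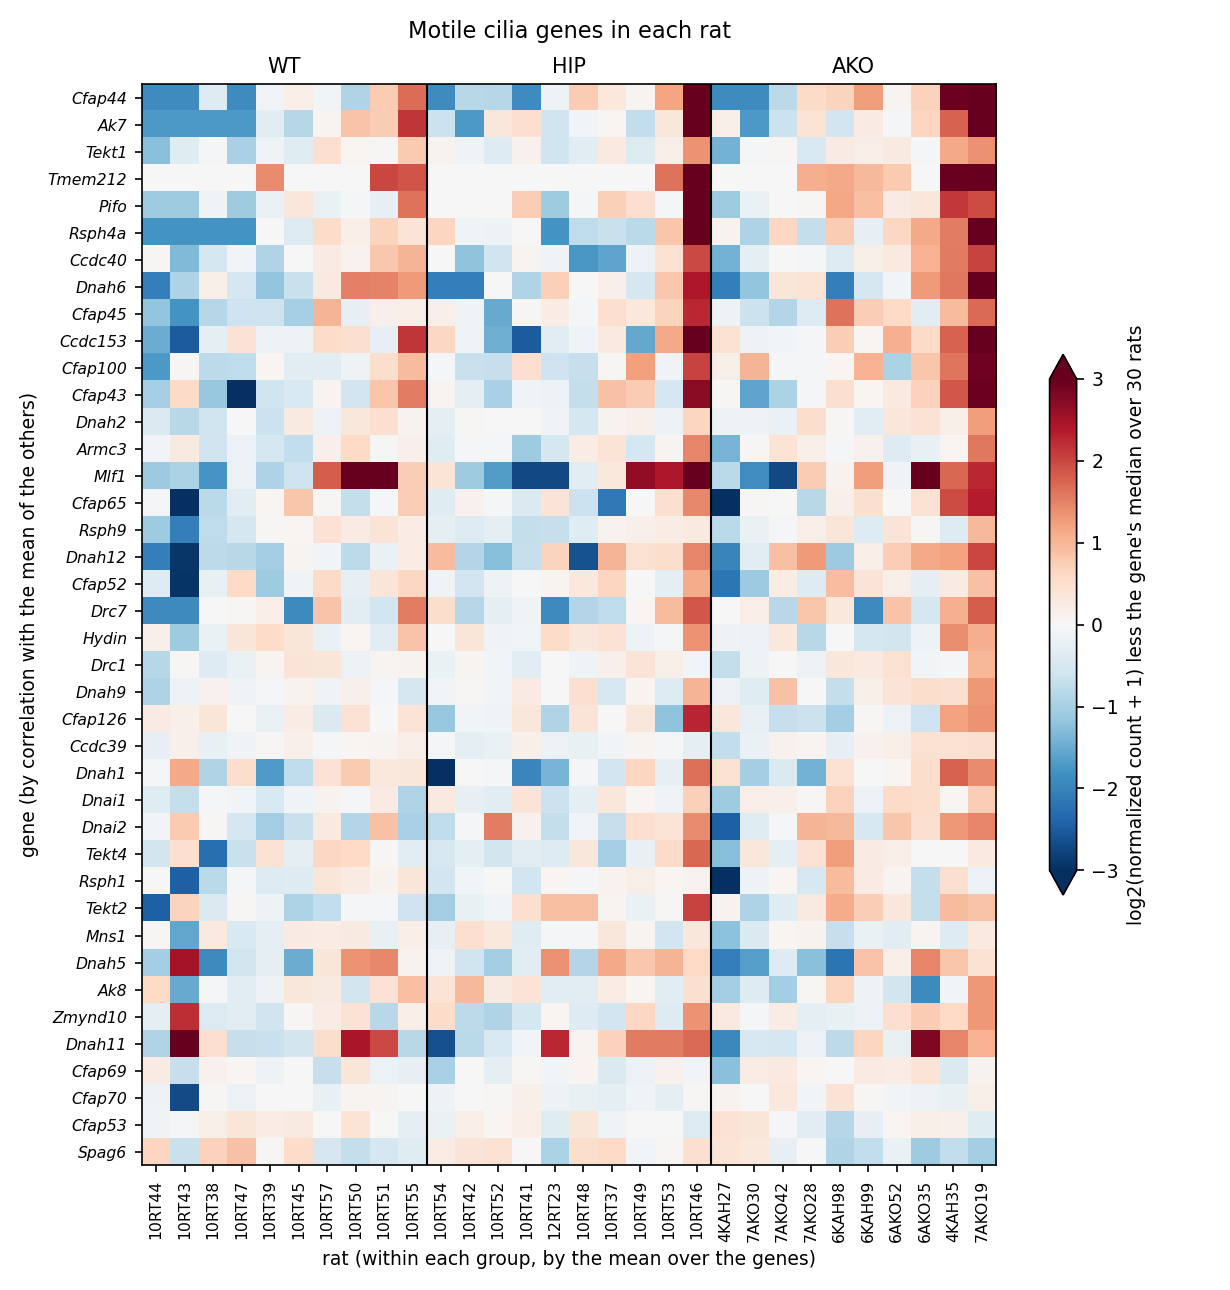
Level of each of the 40 motile cilia genes (rows) in each of the 30 rats (columns, grouped as WT, HIP and AKO), as log2(normalized count + 1) less the median of the gene over all rats, from blue (lower) to red (higher). The columns of 10RT46, 4KAH35 and 7AKO19 are red over most rows, and the rows of Cfap69, Cfap70, Cfap53 and Spag6 do not follow them.

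Among the outer arm dyneins, Dnah5, a heavy chain, ranged from 4.57 to 117 normalized counts in WT rats (median 19.1), from 9.48 to 53.4 in HIP rats (median 24.9) and from 3.64 to 57.7 in AKO rats (median 19.3). Its highest value was that of 10RT43, the library with cerebellar genes, as for the heavy chain Dnah11, which reached 544 in that rat and at most 139.1 elsewhere. The next rat for both genes was 6AKO35, a library with olfactory bulb genes, at 57.7 and 139.1. The highest HIP rat for both was 12RT23, at 53.4 and 95.0. Dnah9, another outer arm heavy chain, ranged from 21.8 to 47.4 in WT rats (median 40.1), from 30.01 to 86.3 in HIP rats (median 43.01) and from 25.5 to 104.8 in AKO rats (median 51.9), with 10RT46 and 7AKO19 highest. The intermediate chain Dnai1 ranged from 12.6 to 28.8 in WT rats (median 22.5), from 15.1 to 40.7 in HIP rats (median 23.6) and from 10.97 to 41.3 in AKO rats (median 27.5). The groups overlapped for each of these 4 genes, and none passed the unadjusted threshold in any main fit. The intermediate chain Dnai2 was at most 14.7, in 10RT52, with 7AKO19 and 10RT46 next at 14.1 and 13.6. Dnah5 and Dnah11 thus peaked in another library than Dnah9 and Dnai1.

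The inner arm genes and their attachments followed the high libraries closely. Dnah6, an inner arm heavy chain, ranged from 0 to 10.9 normalized counts in WT rats (median 2.78), from 0 to 21.3 in HIP rats (median 3.15) and from 0 to 39.3 in AKO rats (median 3.63), and 5 WT, 6 HIP and 4 AKO rats had at most 3 estimated reads. Cfap43 encodes a protein that tethers inner arms to the doublet. It ranged from 0 to 28.8 in WT rats (median 6.23), from 4.21 to 65.9 in HIP rats (median 8.38) and from 2.45 to 78.6 in AKO rats (median 10.7). Its partner Cfap44 was at 0 to 10.8 in WT rats (median 2.14), 0 to 35.9 in HIP rats (median 2.61) and 0 to 50.4 in AKO rats (median 4.68). For all 3 genes the highest HIP rat was 10RT46, the highest AKO rat was 7AKO19 and the next AKO rat was 4KAH35, while the other rats of the 3 groups overlapped. Dnah1, another inner arm heavy chain, was at 28.5 in 4KAH35, 26.2 in 10RT46 and 22.2 in 7AKO19, against at most 17.9 in the other 27 rats. Dnah2 reached 49.4 in 7AKO19, with at most 29.2 in the 27 rats outside the top 3.

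Of the radial spoke genes, Rsph4a and Rsph9 were highest in 7AKO19, but Rsph1 was not. Rsph4a was near the floor outside 10RT46 and 7AKO19, as given above. Rsph1, a protein of the spoke head, ranged from 10.8 to 81.2 normalized counts in WT rats (median 61.8), from 41.9 to 70.7 in HIP rats (median 63.6) and from 1.37 to 121 in AKO rats (median 60.9). The low values were those of 10RT43 and 4KAH27, and 10RT46 and 7AKO19, at 67.9 and 55.4, lay within the other rats. Rsph9 of the spoke head reached 268 in 7AKO19 but 165 in 10RT46, below the highest WT rat at 185.

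The ruler and nexin link genes differed in how much they varied. Ccdc39, part of the ruler that sets the spacing along the doublet, had the smallest spread of the 40 genes, with an SD of 0.25 (log2) within groups. It ranged from 132.03 to 182 normalized counts in WT rats (median 163), from 129 to 176 in HIP rats (median 144.1) and from 94.6 to 222 in AKO rats (median 173). Its partner Ccdc40 behaved otherwise, with 66.9 in 10RT46, 69.5 in 7AKO19 and 50.2 in 4KAH35 against at most 34.6 in the other 27 rats. Drc1, a nexin link protein, ranged from 50.9 to 120 in WT rats (median 95.7), from 72.8 to 121 in HIP rats (median 90.2) and from 56.2 to 185 in AKO rats (median 90.9). Drc7, also of the nexin link, reached 12.6 in 10RT46 and 12.1 in 7AKO19, with at most 9.90 elsewhere. Ccdc39 and Ccdc40 are known to act together, and here the levels of Ccdc40 varied far more than those of Ccdc39, with SDs of 0.95 and 0.25 (log2) within groups.

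Of the central pair genes, Hydin, a large protein of a central pair projection, ranged from 22.7 to 88.2 normalized counts in WT rats (median 52.2), from 43.6 to 126 in HIP rats (median 55.1) and from 26.97 to 130 in AKO rats (median 43.8). The highest rats were 4KAH35, 10RT46 and 7AKO19. The adenylate kinase Ak7 was at most 13.5 in WT rats (median 1.24), while in HIP rats 10RT46 reached 57.2 and the next rat 3.70 (median of all 10, 2.25), and in AKO rats 7AKO19 reached 56.4 and the next rat 10.3 (median of all 10, 2.83). Outside these 2 libraries the groups overlapped. Cfap65 of the central pair was at 48.4, 36.5 and 25.2 in 7AKO19, 4KAH35 and 10RT46, against at most 16.3 elsewhere. Cfap69 and Cfap70, by contrast, were at 112 and 280 in 10RT46 and at 128 and 311 in 7AKO19, within the range of the other rats.

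Among the microtubule inner proteins, the tektin Tekt1 ranged from 9.36 to 41.4 normalized counts in WT rats (median 22.2), from 15.1 to 61.1 in HIP rats (median 23.4) and from 8.23 to 62.5 in AKO rats (median 25.6). The 3 highest rats were 7AKO19, 10RT46 and 4KAH35, at 62.5, 61.1 and 52.5. Cfap53, known also for its part in left-right asymmetry, was instead lowest of the HIP rats in 10RT46, at 174, and ranged from 174 to 296 in HIP rats (median 231). Cfap126 reached 92.1 in 10RT46 and 47.4 in 7AKO19, against at most 24.7 in the 27 rats outside the top 3. Tekt4 was at 29.1 in 10RT46 and at most 20.7 elsewhere, and Cfap52 was highest in 10RT46, 6KAH98 and 7AKO19, at 74.7, 65.6 and 63.5. Mns1 was highest in another HIP rat, 10RT42, at 43.1 against 38.8 in 10RT46. The adenylate kinase Ak8 reached 31.2 in 7AKO19 and at most 24.8 elsewhere.

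Zmynd10, which assembles dynein arms in the cytoplasm, ranged from 18.9 to 164 normalized counts in WT rats (median 31.6), from 17.9 to 88.2 in HIP rats (median 26.1) and from 28.1 to 85.7 in AKO rats (median 41.4). The 164 is that of 10RT43, with 46.4 in the next WT rat. Ccdc153, a coiled-coil gene used as a marker of ependymal cells, ranged from 0 to 24.3 in WT rats (median 4.11), from 0 to 49.5 in HIP rats (median 4.25) and from 4.09 to 73.6 in AKO rats (median 7.14). Tmem212, another ependymal marker, was at 0 to 3.03 in WT rats. It reached 12.6 in 10RT46, with 2.09 in the next HIP rat, and 18.1 in 7AKO19, with 6.85 in the next AKO rat. In 8 WT, 9 HIP and 8 AKO rats Tmem212 had at most 3 estimated reads, so its differences were not detectable at this depth in most libraries.

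Mlf1, a gene of ciliated epithelia, had the largest spread of the 40 genes, with an SD of 1.98 (log2) within groups. It ranged from 0.915 to 75.0 normalized counts in WT rats (median 4.02), from 0 to 61.1 in HIP rats (median 5.70) and from 0 to 81.6 in AKO rats (median 8.09). Its highest WT and AKO rats, 10RT50, 10RT51 and 6AKO35, were 3 of the libraries with olfactory bulb genes, and 7AKO19 was next among AKO rats, at 30.2. Armc3, an armadillo-repeat gene, followed the top libraries, with 28.2 in 7AKO19 and 26.2 in 10RT46 against at most 13.8 elsewhere. Pifo, which acts at the base of cilia, did so at low counts, with 16.5, 7.99 and 7.06 in 10RT46, 4KAH35 and 7AKO19 and at most 5.40 elsewhere.

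The second question was whether the genes vary together between rats. Correlations below are Pearson's r of the log2 values less the mean of the group, over 30 rats, which share a library protocol and a normalization, and are descriptions. Over the 780 pairs of the 40 genes the median r was 0.38, and 85.6% of pairs were above 0. Among pairs of genes taken at even steps through the table the median was -0.00029. Without 10RT46 the median over the 40 genes was 0.31 (n = 29), and without 7AKO19 as well it was 0.22 (n = 28). Within roles, the median over all rats was 0.71 for the 3 pairs of the tether and attachment genes, 0.56 for the 3 pairs of radial spoke genes, 0.55 for the 6 pairs of inner arm dyneins and for the 10 pairs of the other genes of ciliated cells, 0.41 for the 6 pairs of ruler and nexin link genes, 0.31 for the 10 pairs of outer arm dyneins, 0.24 for the 36 pairs of microtubule inner proteins and 0.20 for the 15 pairs of central pair genes. Without 10RT46 and 7AKO19 these medians were, in the same order, 0.53, 0.58, 0.39 (inner arm dyneins), 0.35 (other genes), 0.27, 0.23, 0.07 and 0.22. The microtubule inner proteins thus fell most in proportion, while radial spoke and central pair genes moved little.

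Against the mean of the other 39 genes, 27 of the 40 genes had an r above 0.5, compared with 3.76% of the other genes of the table against the mean of the 40. The median was 0.57 for the 40 genes and 0.01 for the others. Without 10RT46, 22 of the 40 genes had an r above 0.5, against 3.73% of the others, and without 7AKO19 as well it was 20 of the 40, against 6.76%. The closest genes were Cfap44 (r = 0.88), Ak7 (0.85), Tekt1 (0.85), Tmem212 (0.84), Pifo (0.83), Rsph4a (0.83), Ccdc40 (0.82) and Dnah6 (0.81). Without the 2 libraries the r of these 8 genes was 0.81, 0.69, 0.77, 0.66, 0.72, 0.62, 0.69 and 0.71 in the same order. The genes that did not follow were Cfap69 (0.17), Cfap70 (0.15), Cfap53 (-0.37) and Spag6 (-0.43), and Spag6 was at -0.58 without the 2 libraries. Dnah9, Cfap126 and Zmynd10, at 0.54, 0.54 and 0.34 over all rats, were at 0.19, 0.07 and -0.04 without them.

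**Figure D4:**
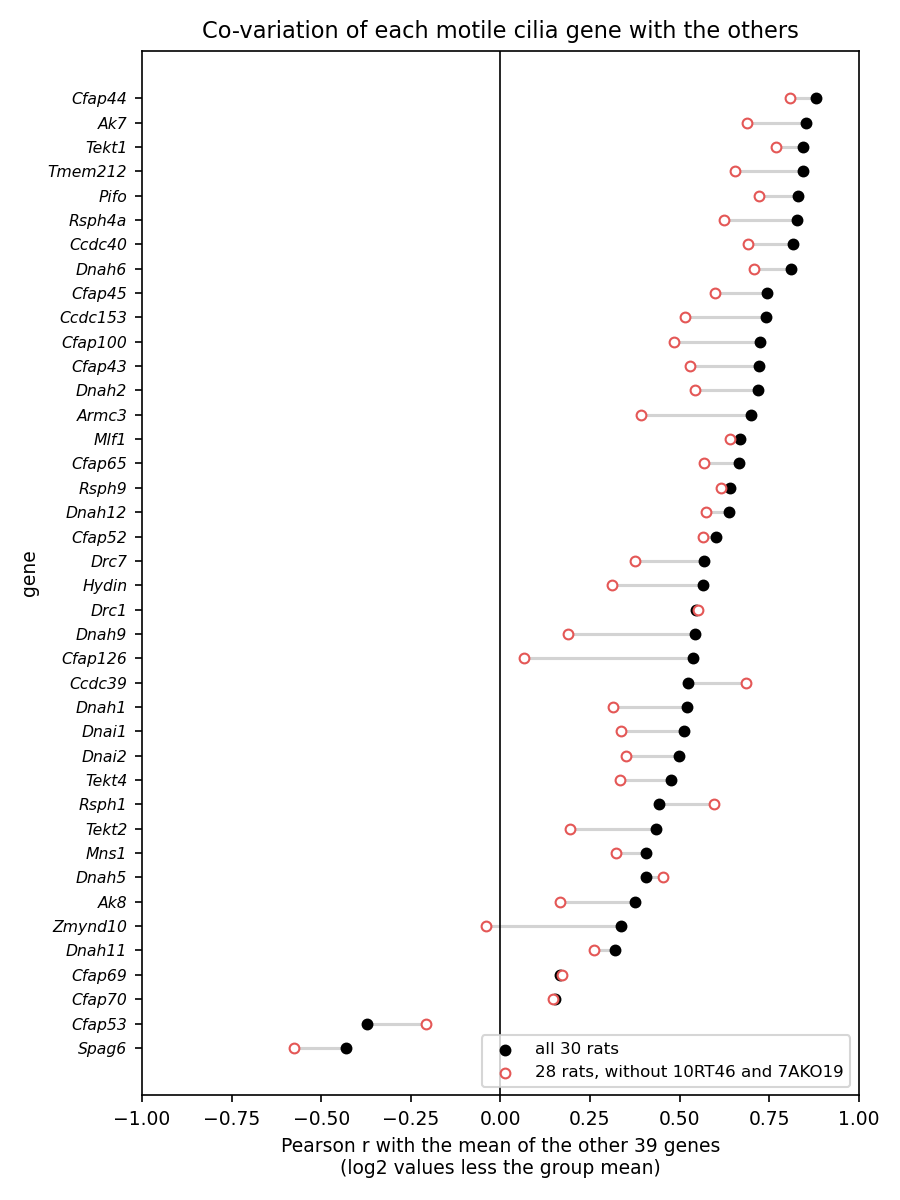
Pearson r of each of the 40 motile cilia genes with the mean of the other 39 (x axis), over all 30 rats (black) and over the 28 rats without 10RT46 and 7AKO19 (open red circles). Cfap44 is highest at 0.88, most genes move to lower r without the 2 libraries, and Cfap53 and Spag6 lie below 0 in both.

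Genes with the exact core motif GTTGCC in the promoter had no higher correlation with the others. Looser forms of the X-box were not searched and can lie among the genes without the motif, such as gttgctgtggtaac in Cfap45. The split therefore cannot decide whether genes with an X-box vary more closely together. Among the 33 genes with both a promoter and a row, the median r with the other genes was 0.52 for the 12 with the motif and 0.57 for the 21 without. Without 10RT46 and 7AKO19 it was 0.34 and 0.49. Spag6, at -0.43 over all rats, was among the 12.

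Genes outside the set that followed its mean most closely over all 30 rats were Mfrp (r = 0.84), Cdhr4 (0.84), Ccdc187 (0.83), Lrrc34 (0.83), Crocc (0.82), Wdr38 (0.81), Wdr49 (0.81), Ccl9 (0.81), Dnali1 (0.80) and Ift81 (0.80). Crocc encodes rootletin of the ciliary rootlet, Dnali1 is a light chain of the inner arm and Ift81 belongs to the transport machinery of cilia. Without 10RT46 the closest were Kcnn3 (0.79), Lrrc34 (0.78), Cdhr4 (0.77), Ccdc187 (0.77), Rsph3 (0.77), Srbd1 (0.77), Mfrp (0.76), Tcfl5 (0.76), Crocc (0.75) and P2ry12 (0.75), with the radial spoke gene Rsph3 among them. Without 7AKO19 as well, the closest were Srbd1 (0.85), Ptn (0.85), Cacng4 (0.84), P2ry12 (0.83), Kcnn3 (0.83), Rsph3 (0.82), Fabp7 (0.82), St6galnac2 (0.82), Marcks (0.82) and Qprt (0.82). Rsph3 was the sole axonemal gene of these 10, while P2ry12 marks microglia.

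The mean of the 40 genes was then set beside lists for tissues and cell types. A list of 8 ependymal genes outside the axoneme (Rarres2, Mia, Sox9, Vim, Nnat, Cd24, S100b and Hdc, of which Sox9, Vim and S100b are also astrocyte genes) had an r of 0.78 over 30 rats, 0.76 without 10RT46 and 0.87 without 7AKO19 as well (Spearman's rho 0.87, 0.85 and 0.87). Its mean log2 value was highest in 4KAH35, at 9.16, and was 8.58 in 10RT46 and 8.50 in 7AKO19. Its summed level was 26077 to 35153 normalized counts in WT rats, 26861 to 32714 in HIP rats and 29341 to 43425 in AKO rats. Hdc was at 0 in 7 WT, 9 HIP and 5 AKO rats. A list of 5 astrocyte genes had an r of 0.49 over all rats, 0.57 without 10RT46 and 0.64 without 7AKO19 as well (rho 0.51, 0.54 and 0.58), and an r of 0.31 over all rats but the 2 farthest from its median. Over the 28 rats without 10RT46 and 7AKO19, lists for the pineal gland, the striatum and oligodendrocytes did not rise with the 40 genes. Their r was -0.40, -0.06 and 0.02 (rho -0.35, -0.09 and -0.06). For the cerebellum and neocortical layers the r was -0.17 and 0.07, but the rho was 0.22 and -0.40. Without the 2 rats farthest from the median of each list as well, the r of these lists was 0.29 and -0.46.

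Choroid plexus genes were high in 2 of the 3 top libraries. Of a list of 12, 11 had a row, and their summed level was 91.5 to 658 normalized counts in WT rats, 106 to 17980 in HIP rats and 151.6 to 4179 in AKO rats. Rats 10RT46 and 7AKO19 gave the 2 highest sums, with 464 and 707 in the next rats of their groups. Over the 28 rats without these 2 libraries, the r with the mean of the 40 genes was 0.48 (rho 0.53). In 4KAH35 Ttr was at 35.4, and the list's mean log2 value was 3.72, against 8.23 in 10RT46 and 6.32 in 7AKO19. Ttr was at 0 in 5 HIP rats. With the list as a covariate, 0 of the 40 genes passed the unadjusted threshold in HIP vs. WT rats, 1 in AKO vs. WT rats and 3 in HIP vs. AKO rats (limma), against 5.20%, 10.3% and 13.6% of all genes. The part of choroid plexus tissue in the levels of the 40 genes was not tested beyond this.

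Olfactory bulb genes formed 2 separate clusters of libraries. The mean log2 value of 6 such genes was 7.05 to 9.88 in 10 libraries (3 WT, 3 HIP and 4 AKO) and 3.12 to 5.39 in the other 20. In the 10, the mean of the 40 cilia genes ranged from 4.07 to 5.003 (median 4.28). In the other 20, which include 10RT46 and 7AKO19, it ranged from 3.22 to 5.63 (median 3.79), and 15 of them lay below the lowest of the 10. Over all 30 rats the r between both means was 0.37 (rho 0.61), and over the 28 without 10RT46 and 7AKO19 it was 0.73 (rho 0.78). Within the 10 libraries the r between both means was 0.39 (rho 0.75), and within the 18 others without 10RT46 and 7AKO19 it was 0.48 (rho 0.56). The part of olfactory bulb tissue in these levels was not tested beyond a fit with the list as a covariate, in which 1, 3 and 3 of the 40 genes passed the unadjusted threshold in HIP vs. WT, AKO vs. WT and HIP vs. AKO rats (limma), against 3.35%, 10.0% and 13.9% of all genes.

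**Figure D5:**
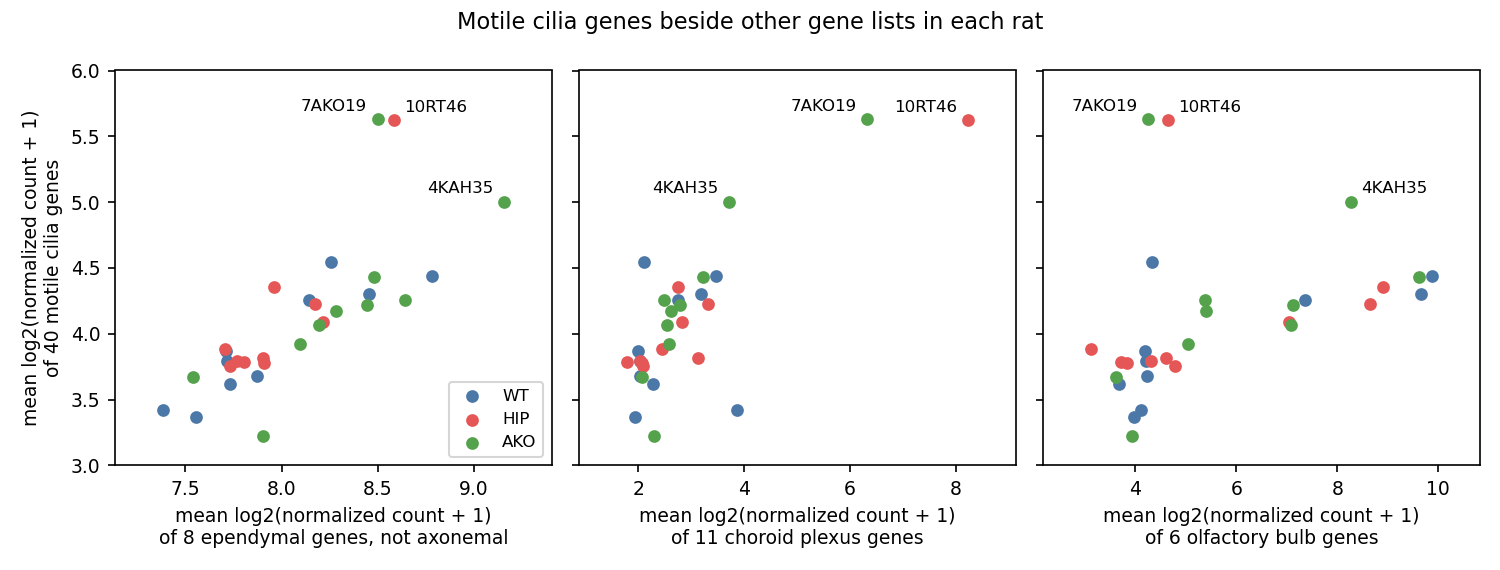
Mean of log2(normalized count + 1) over the 40 motile cilia genes (y axis) against that of 8 ependymal genes outside the axoneme, 11 choroid plexus genes and 6 olfactory bulb genes (x axes), with 1 point per rat coloured by group. Rats 10RT46 and 7AKO19 stand apart in the choroid plexus panel (8.23 and 6.32), while 4KAH35 (3.72) does not, and 10 rats form a separate cluster above 7.05 in the olfactory bulb panel.

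A wider list of 80 genes of motile cilia, without the 45, was read from the same fits, and 59 had a row. Its mean had an r of 0.91 with that of the 40 genes over 30 rats and of 0.85 without 10RT46 and 7AKO19. Of 57 genes tested in HIP vs. WT rats, 2 were higher at an unadjusted p-value under 0.05 and 0 lower (2.57% of all genes called): Dynlrb2, a dynein light chain (0.93 ± 0.39), and Dnah7, an inner arm heavy chain (0.82 ± 0.38). Without 10RT46 0 were higher and 2 lower, Spata17 (-0.72 ± 0.29) and Tppp3 (-0.37 ± 0.18), against 4.58% of all genes, and the median of the list went from 0.08 to -0.0037, so its sign rests on that library. Of 58 tested in AKO vs. WT rats, 5 were higher, Odad1 and Odad4 of the outer arm docking complex (0.91 ± 0.30 and 0.80 ± 0.35), Cfap77 (0.84 ± 0.38), Dnah17 (0.79 ± 0.32) and Spata18 (1.22 ± 0.52), and Spag1, a dynein assembly factor, was lower (-0.46 ± 0.20), against 9.34% of all genes. Without 7AKO19 Odad1 and Dnah17 were higher and Spag1 lower, against 8.39% of all genes, and the median was 0.15 in place of 0.18. In HIP vs. AKO rats Spag1 was higher (0.37 ± 0.15) and Odad1 (-0.93 ± 0.38) and Cfap157 (-1.18 ± 0.40) were lower, against 12.7% of all genes. Without 10RT46 1 was higher and 8 lower, and without 7AKO19 as well 1 was higher and 5 lower, against 17.6% and 16.1% of all genes, and the median was -0.06 over all rats, -0.11 without 10RT46 and -0.05 without both. None passed after adjustment over all genes in any of these fits.

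Genes of primary cilia were read from the same fits as a contrast. Of 43 such genes, 0 passed the unadjusted threshold in HIP vs. WT rats, with or without 10RT46, against 2.57% and 4.58% of all genes. In AKO vs. WT rats 1 was higher, the small GTPase Arl3 (0.28 ± 0.12), and 3 were lower, against 9.34% of all genes. The 3 were Bbs4 (-0.23 ± 0.07) and Bbs5 (-0.26 ± 0.09) of the BBSome and the transition zone gene Cep290 (-0.28 ± 0.13). The same 4 genes passed without 7AKO19, against 8.39% of all genes. In HIP vs. AKO rats Bbs4 (0.22 ± 0.07), Bbs7 (0.15 ± 0.07), Ift52 (0.14 ± 0.06) and Ift80 (0.23 ± 0.11) were higher and Arl3 (-0.22 ± 0.10) was lower, against 12.7% of all genes. Without 10RT46 5 were higher and 1 lower, and without 7AKO19 as well 4 were higher and 1 lower, against 17.6% and 16.1% of all genes. None passed after adjustment. The r of their mean with that of the 40 genes was 0.49 over 30 rats (rho 0.26), 0.16 without the 2 rats farthest from its median and 0.39 without 10RT46 and 7AKO19 (rho 0.13). Of the ependymal genes outside the axoneme, Vim was higher in AKO than in WT rats (0.39 ± 0.17), and Nnat (-0.47 ± 0.21), S100b (-0.25 ± 0.09) and Vim (-0.39 ± 0.15) were lower in HIP than in AKO rats, all at unadjusted p-values under 0.05 in limma and not after adjustment. These genes also passed the unadjusted threshold without 10RT46 and 7AKO19.

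Depth was also examined, because median estimated reads were 15.7 M in HIP and 16.1 M in AKO rats, against 19.1 M in WT rats. With estimated reads as a covariate, 11 of the 40 genes were higher in HIP than in WT rats at an unadjusted p-value under 0.05. Of all genes, 13.9% were higher and 10.1% lower, and the median log2 difference of the 40 was 0.49. Of these, the central pair gene Cfap70 (0.86 ± 0.24, adjusted p = 0.0496) and the spoke gene Rsph9 (0.83 ± 0.24, adjusted p = 0.0499) passed after adjustment in limma, as did 4.33% of all genes. Among WT rats the fewest estimated reads, 12.9 M, were those of 10RT43, the library with cerebellar genes, in which Cfap70 was at 41.9 and Rsph9 at 31.8, the lowest of the WT rats. With the covariate but without 10RT43, 2 genes were higher and 1 lower at the unadjusted threshold, against 1.56% of all genes in either direction, and 0 passed after adjustment. In AKO vs. WT rats Cfap45, Dnah12, Dnai1 and Rsph4a were higher at the unadjusted threshold with this covariate, against 10.6% of all genes. The smallest adjusted p of these was 0.273 (limma).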

How the data were processed

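RNA of 30 rats was extracted with the RNeasy Mini Plus kit and made into libraries with the SMARTer mRNA-Seq kit. Reads were aligned to rn7, a rat genome build, using Partek Flow 10.0.22.0228, with STAR 2.7.8a and Bowtie2 named in the submitters' processing notes. The authors quantified reads on genes of Ensembl release 105 and deposited a signal that is the read count of each gene divided by DESeq2 size factors, with 1 column per rat, 17134 genes and decimals in place of whole numbers. How reads shared between related genes or between strands were assigned is not given in the sources used here.

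Groups were taken from the genotype in the sample annotation. Each rat is 1 library, and the annotation carries no replicate numbers. From the low values the normalized count of 1 read was estimated for each library, which gave estimated reads, but only 80.61 to 83.98% of values below 100 were whole multiples within 0.02 reads, so no count test was run. Values of at most 3 estimated reads are near the floor of detection, and counting error alone is covered by this floor. Comparisons used limma 3.58.1 in R 4.3.3 (linear model and empirical Bayes with a mean trend, two-sided) on log2(normalized count + 1), for genes whose mean normalized count in the rats compared reached 1, with Benjamini-Hochberg adjustment over all genes tested. The code was tested on simulated data. Correlations were made in Python 3.11.15 (numpy 2.4.6, pandas 2.3.3) on log2 values less the group mean, and carry no test. Promoters came from RefSeq, assembly GRCr8, matched by symbol, and no coordinates of rn7 are given.

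The members, the comparison lists and the tests were chosen with earlier results of these data known. The named genes were those past the unadjusted threshold in each comparison, plus members with a set role, the members with the largest and smallest spread and the closest and least close members by correlation. The other members given with values, among them Dnah11, Dnah1, Dnah2, Dnai2, Rsph9, Ccdc40, Cfap65, Cfap126, Cfap52, Tekt4, Mns1, Ak8, Armc3 and Pifo, were chosen after their values were seen. Alternatives were the pseudocount, the filter on low values, the normalization, the samples in the fit, covariates and libraries left out.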

Additional observations from a re-analysis of the deposited data

Results flagged for a closer look

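For 23 measures (22 of the genes and the mean of the 40) the highest and the lowest rat of each group of 10 were set against the others by Dixon's gap test. Of the 69 groups examined, 15 had a rat apart past the 95% critical value, where chance gives about 1 in 20, or 3.45. The measures share libraries, so these are not 15 independent events.

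HIP rat 10RT46 was apart for 6 genes and for the mean of the 40, which was 5.62 on the log2 scale against 3.76 to 4.36 in the remaining HIP rats. Its normalized counts were 126 for Hydin (43.6 to 72.0 in the remaining rats of the group), 65.9 for Cfap43 (4.21 to 18.0), 61.1 for Tekt1 (15.1 to 28.8), 57.2 for Ak7 (0 to 3.70), 43.6 for Rsph4a (0 to 5.22) and 12.6 for Tmem212 (0 to 2.09). AKO rat 7AKO19 was apart for Ccdc153, at 73.6 (4.09 to 18.3), and Rsph4a, at 53.4 (0.817 to 9.13). These are the 2 libraries with Ttr above 1000 normalized counts.

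WT rat 10RT43, the library with 17979 normalized counts of Gabra6, was apart in both directions, with 164 for Zmynd10 (18.9 to 46.4) and 10.8 for Rsph1 (35.7 to 81.2). AKO rat 4KAH27 was low for Rsph1, at 1.37 (37.9 to 121), and for Dnai1, at 10.97 (21.4 to 41.3). WT rat 10RT44 was low for Tekt2, at 1.04 (4.90 to 16.7), and HIP rat 12RT23, in which Gabra6 was 1564, was low for Spag6, at 11.6 (22.3 to 36.0). What sets these libraries apart was not tested.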

How the results depend on the processing

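Counts below are of the 40 genes past the unadjusted threshold in limma, and alternatives not named kept them within 1.5 times. In HIP vs. WT rats the count of 1 became 0 without 10RT46, with a pseudocount of 0.1, with a mean of at least 10, after quantile normalization and with the choroid plexus list as a covariate. The share of all genes for these counts of 0 was, in the same order, 4.58%, 2.55%, 2.41%, 2.57% and 5.20%. It became 11 with estimated reads as a covariate (2 after adjustment) and 3 when 10RT43 was also left out. With the reads covariate 13.9% of all genes were higher and 10.1% lower at the unadjusted threshold, and 4.33% passed after adjustment. When 10RT43 was also left out, 1.56% of all genes passed the unadjusted threshold. In AKO vs. WT rats the count of 4 became 2 with a mean of at least 10, after quantile normalization, with the 4 KAH rats alone and with the reads covariate without 10RT43. It became 1 with the choroid plexus covariate and without 7AKO19. The share of all genes was, in the same order, 9.42%, 9.29%, 10.5%, 6.38%, 10.3% and 8.39%. In HIP vs. AKO rats the count of 1 became 4 without 10RT46 and with the AKO-named rats alone, and 3 with the choroid plexus or the olfactory bulb covariate. It became 2 with the library number as a covariate, with the KAH rats alone and without 10RT46 and 7AKO19. The share of all genes was, in the same order, 17.6%, 11.2%, 13.6%, 13.9%, 12.5%, 13.6% and 16.1%. The cause of these changes was not tested. The median correlation between pairs, 0.38, was 0.22 without 10RT46 and 7AKO19. The fit without Ttr libraries, the olfactory bulb covariate, the reads covariate without 10RT43 and the exclusion of each rat from the correlation were chosen after seeing the data.

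When 1 rat was left out at a time, the count was 0 to 2 in HIP vs. WT, 1 to 7 in AKO vs. WT and 1 to 4 in HIP vs. AKO rats, 0 genes passed after adjustment, and the median pair correlation was 0.30 to 0.40. For HIP vs. WT it was 0 without 10RT37, 10RT38, 10RT39, 10RT41, 10RT44, 10RT45, 10RT46, 10RT53 or 12RT23 and 2 without 10RT51 or 10RT52. For AKO vs. WT it was 1 without 10RT38, 10RT44 or 7AKO19, 2 without 10RT47, 4KAH35 or 6KAH99, and 7 without 4KAH27. For HIP vs. AKO it was 4 without 10RT46, 3 without 4KAH27 and 2 without 7AKO19. Over all genes, 1.81 to 4.58% passed in HIP vs. WT, 7.68 to 11.6% in AKO vs. WT and 9.69 to 17.6% in HIP vs. AKO. Without 4KAH27 the AKO vs. WT share was 10.3%. Dnah12 and Spag6 passed in 20 of 20 such fits (highest limma p = 0.0305 and 0.0364), Rsph4a in 15 (0.0564), Cfap100 in 12 (0.0791), Cfap45 in 9 (0.0883) and Tekt2 in 8 (0.106). The direction of these 6 genes did not change in any alternative run. No paired analysis was possible because the annotation gives the rats no replicate numbers. A planned correlation with Foxj1 was replaced by one with the mean of the other genes, because Foxj1 was not matched by symbol. Depth limits the genes with few reads, such as Tmem212 and Rsph4a.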
